A study of Homo sapiens with 7 samples.

Results

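MYCN binding was described at the loci of 8 genes that encode subunits of the transcription factor AP-1, in the neuroblastoma line Kelly. The genes were JUN, JUNB, JUND, FOS, FOSB, FOSL1, FOSL2 and ATF3. Members were the MYCN summits (the position of highest signal within an enriched interval) inside a window of each gene plus about 10 kb on both sides, on the hg19 build. This gave 71 summits in 44 intervals, of 64657 summits in the whole list. The windows were 22 kb long at JUNB and JUND, 24 kb at JUN and FOS, 28 kb at FOSB and FOSL1, 43 kb at FOSL2 and 76 kb at ATF3, or 267 kb in all.

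The assay was ChIP-seq, in which DNA bound by MYCN is pulled down with an antibody and sequenced, and input is the same chromatin without that step. Kelly is an established line with an amplified MYCN gene and an activating ALK mutation. Resistant Kelly cells, treated with the ALK inhibitor TAE684 at 1 µM for 48 h, had 2 MYCN ChIP samples and 2 input samples, and sensitive Kelly cells, given DMSO for 48 h, had 2 MYCN ChIP samples and 1 input sample. The list of the resistant cells was identical to that of the sensitive cells at all 64657 lines, and 64657 of 64657 peaks in it bore the sensitive list's name. Every value below therefore refers to the sensitive cells, no comparison between the states was made, and with 1 list for both ChIP samples no value has a replicate error.

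AP-1 is a dimer of basic leucine zipper proteins. JUN proteins pair with each other or with FOS proteins, whereas FOS proteins need a JUN partner, and ATF3 belongs to the related ATF/CREB group. Several of these genes are immediate-early genes, switched on within minutes of growth factor or stress signals, in part through the RAS-ERK pathway that ALK also feeds. MYCN binds DNA with its partner MAX, by preference at the E-box CACGTG and also at other sequences of the form CANNTG.

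The sequence just before the transcription start is shown for the 6 genes that had a MYCN summit within about 1 kb of the start. The summits are on hg19 and no hg19 sequence was used, so no base of these stretches was matched to a summit. Each stretch is the 250 bases before the start in RefSeq, on GRCh38.p14, written 5′ to 3′ on the gene's strand. Capitals mark CANNTG, which includes CACGTG, and the cAMP response element TGACGTCA, a target of ATF and JUN proteins.
JUN, chr1:58784048-58784297, minus strand: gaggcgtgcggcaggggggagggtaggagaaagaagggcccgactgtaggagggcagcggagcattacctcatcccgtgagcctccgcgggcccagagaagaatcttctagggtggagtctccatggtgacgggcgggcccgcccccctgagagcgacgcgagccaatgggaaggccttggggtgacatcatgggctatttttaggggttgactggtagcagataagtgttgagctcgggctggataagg
JUNB, chr19:12791236-12791485, plus strand: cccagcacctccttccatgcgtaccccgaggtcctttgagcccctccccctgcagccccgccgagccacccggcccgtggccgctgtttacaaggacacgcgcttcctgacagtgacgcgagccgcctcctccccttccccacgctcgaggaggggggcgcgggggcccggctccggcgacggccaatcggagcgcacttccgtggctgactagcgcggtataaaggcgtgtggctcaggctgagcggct
JUND, chr19:18281623-18281872, minus strand: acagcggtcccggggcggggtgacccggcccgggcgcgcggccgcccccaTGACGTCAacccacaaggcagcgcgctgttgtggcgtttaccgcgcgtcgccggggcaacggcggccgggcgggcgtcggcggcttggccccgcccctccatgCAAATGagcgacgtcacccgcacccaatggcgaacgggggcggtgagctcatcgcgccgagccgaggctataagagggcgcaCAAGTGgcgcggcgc
FOS, chr14:75278578-75278827, plus strand: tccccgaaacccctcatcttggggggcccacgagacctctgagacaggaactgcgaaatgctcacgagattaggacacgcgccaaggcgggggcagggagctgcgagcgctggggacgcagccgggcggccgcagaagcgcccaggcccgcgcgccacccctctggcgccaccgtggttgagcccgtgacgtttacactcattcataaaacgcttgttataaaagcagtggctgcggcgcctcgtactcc
FOSB, chr19:45467746-45467995, plus strand: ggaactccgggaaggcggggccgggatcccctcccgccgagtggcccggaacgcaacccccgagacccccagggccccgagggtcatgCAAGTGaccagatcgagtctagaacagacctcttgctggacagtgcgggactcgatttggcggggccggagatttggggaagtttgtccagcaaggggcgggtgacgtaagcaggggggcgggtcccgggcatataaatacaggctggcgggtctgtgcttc
FOSL2, chr2:28392608-28392857, plus strand: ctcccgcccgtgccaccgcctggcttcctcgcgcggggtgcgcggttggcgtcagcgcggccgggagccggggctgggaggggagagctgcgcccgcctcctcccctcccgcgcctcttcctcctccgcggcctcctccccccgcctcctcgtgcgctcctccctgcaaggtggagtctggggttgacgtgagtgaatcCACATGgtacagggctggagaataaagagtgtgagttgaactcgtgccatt

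RefSeq promoters were found for 7 of the 8 genes, with a pair of starts for ATF3. None of these 8 stretches held CACGTG, which was present in 6.34% of all 35116 promoter stretches of this length. Any CANNTG was present in 61.8% of all stretches. JUND held 2 of them, CAAATG at 97 bases and CAAGTG at 15 bases before the start, where the first base of the motif is counted. FOSB held CAAGTG at 162 bases and FOSL2 held CACATG at 51 bases before the start. The outer start of ATF3 had 4 and its other listed start 0, and JUN, JUNB and FOS also had 0. Neither of the listed ATF3 starts was matched to the group of summits inside that gene described below. The element TGACGTCA was found at JUND, 200 bases before the start, and in 1.65% of all stretches. The AP-1 element TGACTCA was found in none of the 8 stretches and in 4.20% of all. Both strands were searched, for exact matches only. Variants of TGACTCA and TGACGTCA inside these stretches were therefore not counted, and a count of none does not mean that no such variant is present. A match is a string of letters and not a measured site, and the absence of one says nothing of bases outside these stretches.

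MYCN summits were frequent at these loci and of ordinary fold enrichment. The 8 windows held 266 summits per Mb, and the whole list 21.3 per Mb of chromosomes 1 to 22 and X up to the last peak. The ratio was 12.5, and it compares windows placed on genes with all sequence, including sequence far from genes. The median fold enrichment, the authors' ratio of ChIP to local background at a summit, was 5.36 at the AP-1 loci (quartiles 3.74 and 7.67) and 5.35 in the list (quartiles 3.90 and 7.54). A fold enrichment of at least 10 was reached by 7 of 71 summits, or 9.86% (exact 95% CI 4.06 to 19.3, counting error only), and by 12.0% of the list. A fold of at least 5 was reached by 40 of 71, or 56.3%, and by 55.8% of the list. A −log10 q of at least 10 was reached by 52 of 71, or 73.2%, and by 64.2% of the list. The median −log10 q was higher at the AP-1 loci, 21.7, than in the list, 14.4. The member just above a fold of 10 was at FOSL1, with 10.7, and the one just below at FOS, with 9.83.

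The number of ChIP fragments over a summit, recovered from the deposited fold enrichment and p-value, was high relative to the list. Its median was 86 at the AP-1 loci (quartiles 61 and 139) and 63 in the list (quartiles 41 and 102). More fragments than the list's median lay over 52 of the 71 summits, or 73.2%, and over 49.5% of the list. The local background, in input fragments, was also higher, with a median of 9.80 at the AP-1 loci and 7.56 in the list. No AP-1 summit had the genome-wide mean background of 1.61, which 4533 summits of the list had. Fold enrichment divides by the background, after ChIP fragments are scaled by 0.641 to the input and 1 is added to both. The fragment numbers given here are not scaled, so their plain ratio to the background is not the fold enrichment. The median fold over the 71 summits was near the list's, while the medians of ChIP fragments and of background were above the list's. Single genes differed. The median number of ChIP fragments was 57.5 at JUND and 57 at FOSB, below the list's 63, and ran from 66 at FOSL1 to 129 at FOSL2 at the other 6 genes. The median background was 7 at JUND, below the list's 7.56, and ran from 8.96 at FOSB to 14.4 at ATF3 at the other 7. Across the 71 summits Spearman's rho between ChIP fragments and background was 0.501, against 0.674 across the list. Between fold and background it was −0.054, against −0.290. Between fold and ChIP fragments it was 0.815, against 0.467. Summits of 1 locus share libraries and neighbourhood, so these values are a description.

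**Figure D1:**
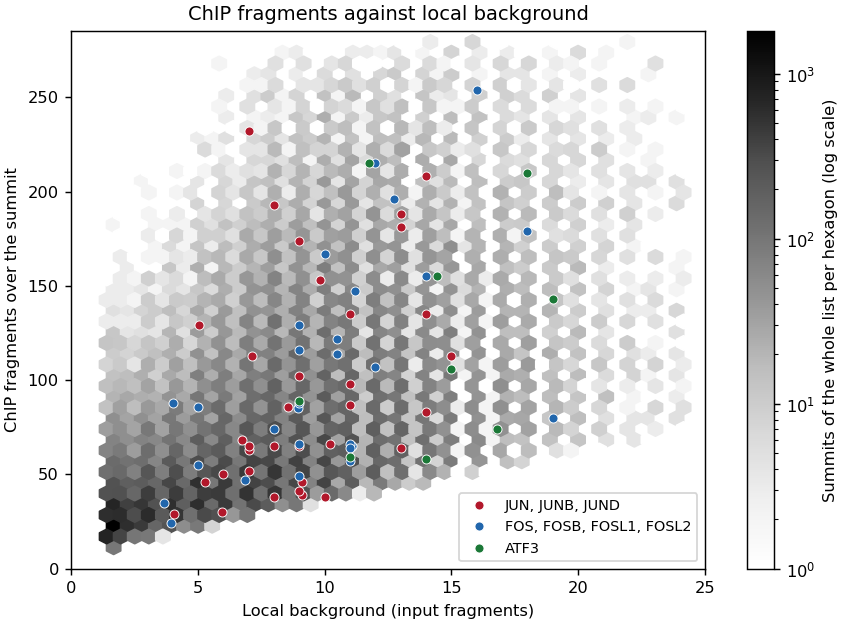
ChIP fragments over each summit (vertical axis) against its local background in input fragments (horizontal axis), with 71 AP-1 summits as coloured points and the whole list as grey hexagons shaded by number of summits. The AP-1 points lie between 3.65 and 19 input fragments and between 24 and 254 ChIP fragments, with none at the lowest background of the list, 1.61.

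Summits gathered around the transcription starts of JUN, JUND, FOS and FOSL2, and less so at the other genes. Starts were taken to about 1 kb, as the end of the window less 10 kb on the side where transcription begins. Upstream, downstream and all distances below refer to this approximate start, so for summits closer than about 1 kb the side of the true start is not known. Within 2 kb of the start lay 38 of 71 summits, or 53.5%, on stretches that make up 12.0% of the windows, and 7 of the 8 genes had at least 1. The counts within 2 kb were 9 of 10 at JUN and at JUND, 3 of 3 at FOS and 8 of 9 at FOSL2. They were 5 of 14 at JUNB, 3 of 7 at FOSB and 1 of 9 at FOSL1. ATF3 had none within 2 kb of its outer start. The share of the whole list near starts was not measured. The summits near starts were not the stronger ones, with a median fold enrichment of 5.26 within 2 kb and 5.57 beyond, and medians of 84.5 and 88 ChIP fragments. They were the more crowded ones. Intervals with 4 or more summits held 16 of the 71 members, or 22.5%, against 8.75% of the list, and all 16 lay within 2 kb of the starts of JUN, JUND and FOSL2.

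**Figure D2:**
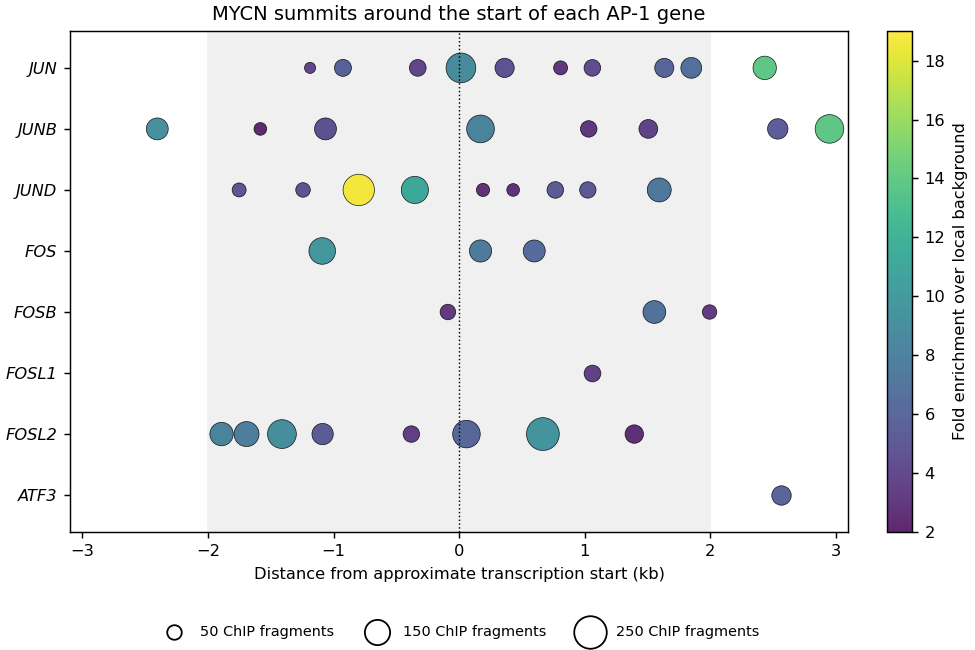
Summits within 3 kb of the approximate start of each gene (horizontal axis, kb in the direction of transcription), with circle area for ChIP fragments and colour for fold enrichment; the grey band marks 2 kb on each side. JUN and JUND have 9 summits each in the band, FOSL2 has 8, JUNB 5, FOS and FOSB 3 each, FOSL1 1 and ATF3 0.

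The JUN-type genes, whose proteins can bind DNA without a FOS partner, carried 34 of the 71 summits in 68 kb. JUND, the most broadly expressed of them, had the strongest site of all 8 loci. A single interval on chromosome 19 from 18390885 to 18393431 covered its start. It was 2547 bp wide and held 7 summits. Only 29 of the 47765 intervals of the list, this one included, were as wide or wider, and 48 had as many summits or more. Its highest summit, at 18392800 and about 0.80 kb upstream of the approximate start, had a fold enrichment of 18.7, a −log10 q of 132.3 and 232 ChIP fragments over a background of 7. By fold it ranked 656 of 64657 in the list. The next summit, about 0.35 kb upstream, had a fold enrichment of 11.3 and 174 fragments. The other 5 summits of the interval were lower, with 4 between 2.73 and 5.34 on the downstream side and 1 of 4.72 about 1.2 kb upstream. Both high summits thus lay side by side within 1 kb of the approximate start, with lower ones on each side. Outside the interval, within 2 kb of the start, a summit in the gene had 7.30 and one about 1.8 kb upstream had 4.86. The remaining summit, about 8.6 kb downstream, had 4.29. Within 10 kb of JUND, RefSeq places MIR3188, LOC124904652, RPL39P38 and LOC124904653 on the upstream side. The coding gene IQCN is on the downstream side. To which of these genes a summit of the JUND window belongs was not tested.

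JUN encodes c-Jun, the founding AP-1 subunit. All 10 of its summits fell between about 1.2 kb upstream and 2.4 kb downstream of the start, and the rest of the 24-kb window was empty. An interval of 1621 bp, on chromosome 1 from 59248823 to 59250443, lay over the start with 5 summits. The summit nearest the approximate start, at 59249986, had most ChIP fragments of the locus, 208, and a fold enrichment of 8.96 over a background of 14. On each side of it the fold was lower, at 3.86 on the upstream side and at 4.73, 3.02 and 4.27 on the downstream side. The highest fold enrichment of the locus, 13.9, was instead about 2.4 kb into the gene at 59247566, with 129 fragments over a background of 5.04. The order of these 2 sites therefore depends on whether fragments or fold are ranked. Further into the gene than the interval over the start, a pair of summits within 2 kb had 6.64 and 5.89. Upstream, a pair about 0.93 and 1.2 kb away had 5.78 and 3.87. In RefSeq the noncoding gene JUN-DT is the upstream neighbour.

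JUNB encodes a subunit that can restrain c-Jun in some settings. Its 22-kb window held 14 summits, the most of the 8, in 10 intervals. They were spread over more of the window than at JUN or JUND, with 5 of 14 within 2 kb of the start. Others lay just outside that limit, about 2.4 kb upstream and about 2.5 and 3.0 kb downstream. The highest fold enrichment, 13.9, was about 3.0 kb downstream of the start and beyond the gene's end, on chromosome 19 at 12904952. It had 193 ChIP fragments, also the most of this locus. The summit nearest the approximate start, at 12902172, had a fold enrichment of 8.36 and 181 fragments. The other 4 summits within 2 kb were weak, at 2.31 and 4.59 upstream and at 3.0 and 3.62 downstream, and the value of 2.31 was the lowest of all 71. The 8 summits farther out, without the strongest, ran from 2.58 to 9.18. RefSeq places the coding genes HOOK2, PRDX2 and THSD8 within 10 kb of JUNB, and HOOK2 overlaps it. To which of these genes a summit of the window belongs was not tested.

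The FOS-type genes carried 28 summits in 123 kb. FOS, the classical immediate-early gene, had only 3, with fold enrichments above the list's median of 5.35. A summit about 1.1 kb upstream of the start, on chromosome 14 at 75743911, had a fold enrichment of 9.83 and 167 ChIP fragments. A pair within 1 kb of the approximate start shared an interval of 912 bp and had fold enrichments of 7.54 and 6.44, with 116 and 114 fragments. The upstream summit was thus the strongest of the 3 on both measures. The last 13.4 kb of the window held no summit. In RefSeq LOC124903434 is the upstream neighbour of FOS and DPPA5P4 the downstream one.

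FOSL2 encodes FRA2, a FOS relative without the strong activation domain of c-Fos. It had the site with most ChIP fragments of all 8 loci. This summit, on chromosome 2 at 28615669 and about 0.67 kb from the approximate start, had 254 fragments, rank 338 in the list. Its fold enrichment was only 9.64, since the background there was 16. It shared an interval of 1202 bp with a summit about 0.06 kb from the approximate start, which had 179 fragments and a fold of 6.09. Upstream, an interval of 1330 bp held 4 summits about 1.1 to 1.9 kb from the start, with fold enrichments of 8.37, 7.81, 9.22 and 5.36 from the farthest inward. Between the intervals lay a summit of 3.5, and past them, about 1.4 kb into the gene, one of 2.62 with the highest background of this locus, 19. The gene's remaining length held no summit, and the last member was about 9.2 kb upstream with 9.36. The antisense gene FOSL2-AS1 overlaps FOSL2 in RefSeq, and LOC105374383 is its upstream neighbour.

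FOSB, known in neurons for a long-lived shortened protein made by splicing, had 7 summits in 28 kb. Those within 2 kb of the start were modest. The summit about 0.09 kb from the approximate start had a fold enrichment of 3.13, and those about 1.6 and 2.0 kb into the gene had 6.89 and 3.24. The middle one, on chromosome 19 at 45972557, had most ChIP fragments of the locus, 122. The highest fold enrichment, 11.5, lay about 10.8 kb downstream of the start and past the gene, at 45981818, with 88 fragments over a background of 4. A pair just beyond it had 5.04 and 6.05. RefSeq has the selenocysteine tRNA gene TRU-TCA1-1 as the downstream neighbour of FOSB. Whether these 3 summits lie at that gene was not read from an hg19 annotation. The last summit, about 17.7 kb downstream, had 5.57.

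FOSL1 encodes FRA1 and stood apart by where its summits lay. Its window held 9, but within 2 kb of the start there was 1, about 1.1 kb into the gene, with a fold enrichment of 3.61 and 66 ChIP fragments. Past the gene's end, between about 8.6 and 15.7 kb from the start, there were 7. The strongest of these, on chromosome 11 at 65658127, had a fold enrichment of 10.7 and 215 fragments, the highest of the locus on both measures. The other 6 ran from 3.54 to 6.69. RefSeq lists 3 coding genes within 10 kb of FOSL1, CCDC85B, FIBP and CTSW, and all 3 are on this downstream side. The window on the upstream side held a single summit of 3.33 with 24 fragments, the fewest of all 71.

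ATF3, a stress-induced factor that can repress as a homodimer, had 9 summits in 76 kb. It is known to be transcribed from more than 1 promoter, with the outer one far upstream of the other. The highest fold enrichment, 10.9 with 215 ChIP fragments, was about 5.7 kb upstream of the outer end, on chromosome 1 at 212732309. The other summit of its interval had 2.55. A group of 4 summits in a pair of intervals lay inside the gene, between about 43.8 and 44.8 kb from its outer end. They had fold enrichments of 4.64, 7.14, 2.72 and 6.51, with 143, 210, 74 and 155 fragments. Their backgrounds ran from 14.4 to 19 input fragments, and 19 was the highest of all 71 summits, reached here and at FOSL2. Whether this group lies at the inner promoter was not read from an hg19 annotation. A summit about 2.6 kb into the gene had 5.81, and a pair past its end had 3.24 and 4.31. Within 10 kb of ATF3, RefSeq places LINC01740 upstream, and GARIN4 and LINC02773 downstream. To which of these genes a summit of the ATF3 window belongs was not tested.

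**Figure D3:**
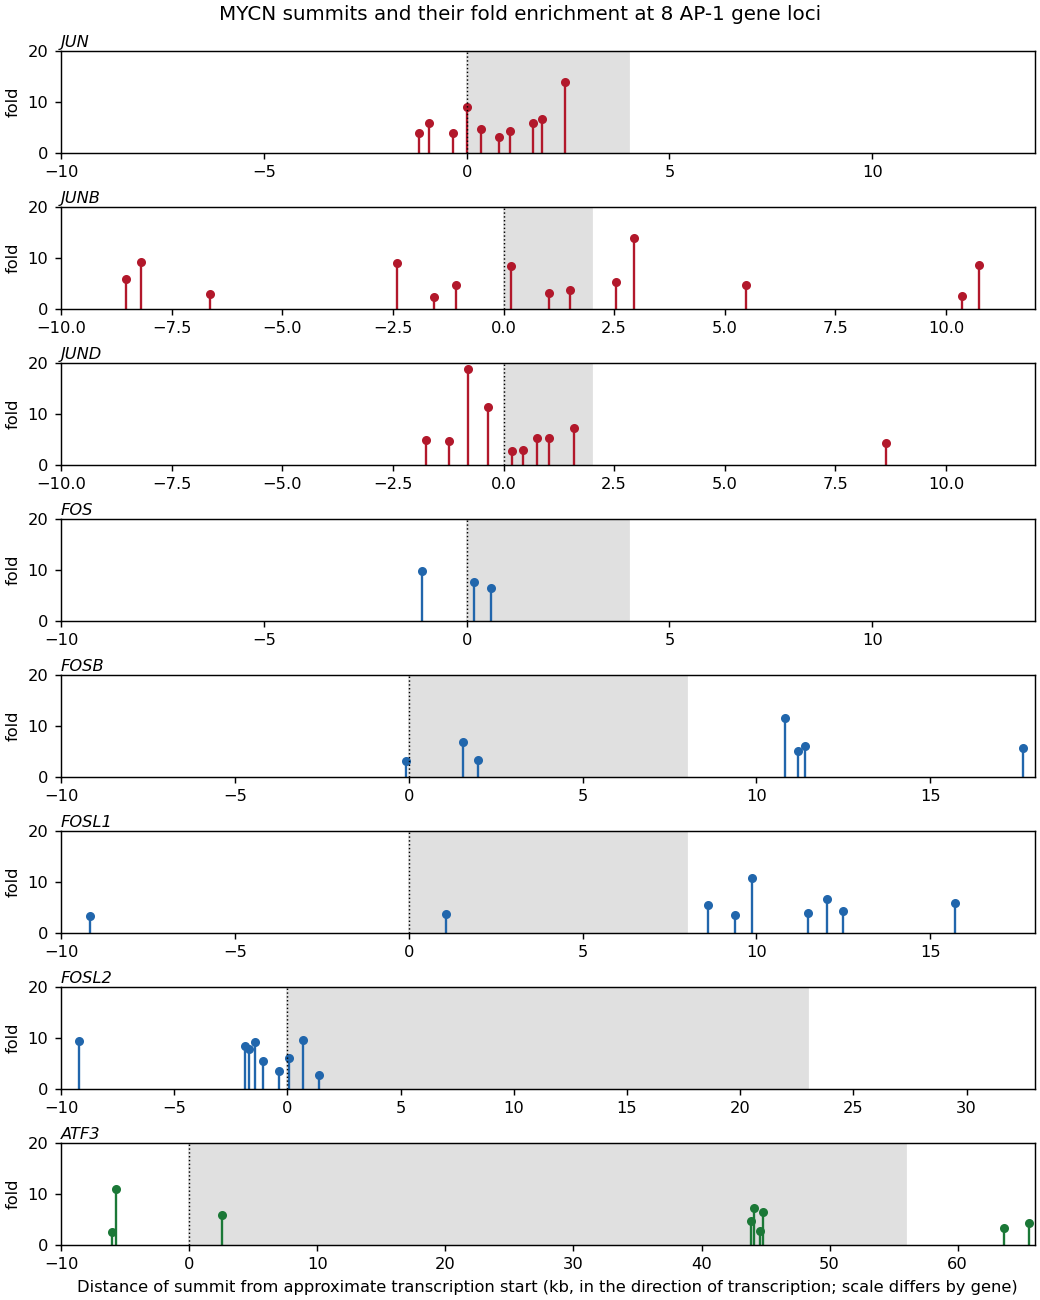
Each panel shows 1 gene, with the distance of summits from the approximate transcription start (horizontal axis, kb in the direction of transcription, scaled to its window) and their fold enrichment (vertical axis); grey marks the gene and the dotted line its start. JUN, JUND, FOS and FOSL2 have most of their summits at the start, FOSL1 has 7 of 9 past its end, and ATF3 has 4 near 44 kb inside the gene.

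The genes differed more in density of summits than in their median strength. Summits per window length ran from 118 per Mb at ATF3 and 125 at FOS to 417 at JUN, 455 at JUND and 636 at JUNB. FOSL2 had 209, FOSB 250 and FOSL1 321. Density also depends on window length, since ATF3, FOSL1 and FOSL2 each had 9 summits, in windows of 76, 28 and 43 kb. Chromosome 19, which holds JUNB, JUND and FOSB, had 56.0 summits per Mb in all, against 28.2 on chromosome 1, which holds JUN and ATF3. When chromosomes were divided into tiles as long as each gene's window, at least as many summits as at JUNB were found in 0.0283% of tiles. The shares were 0.125% for JUND, 0.168% for JUN, 0.373% for FOSL1, 0.971% for FOSB, 0.996% for FOSL2, 3.32% for ATF3 and 6.79% for FOS. Tiles fall anywhere, also far from genes, so these shares place the counts and do not compare them with other genes. Many tiles held no summit. Among tiles with at least 1 summit the shares were larger, from 0.130% for JUNB to 7.13% for ATF3 and 29.3% for FOS. Median fold enrichment was highest at FOSL2, 7.81, and FOS, 7.54, and lowest at FOSL1, 4.33, and ATF3, 4.64. The values of every gene overlapped those of each other gene.

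**Figure D4:**
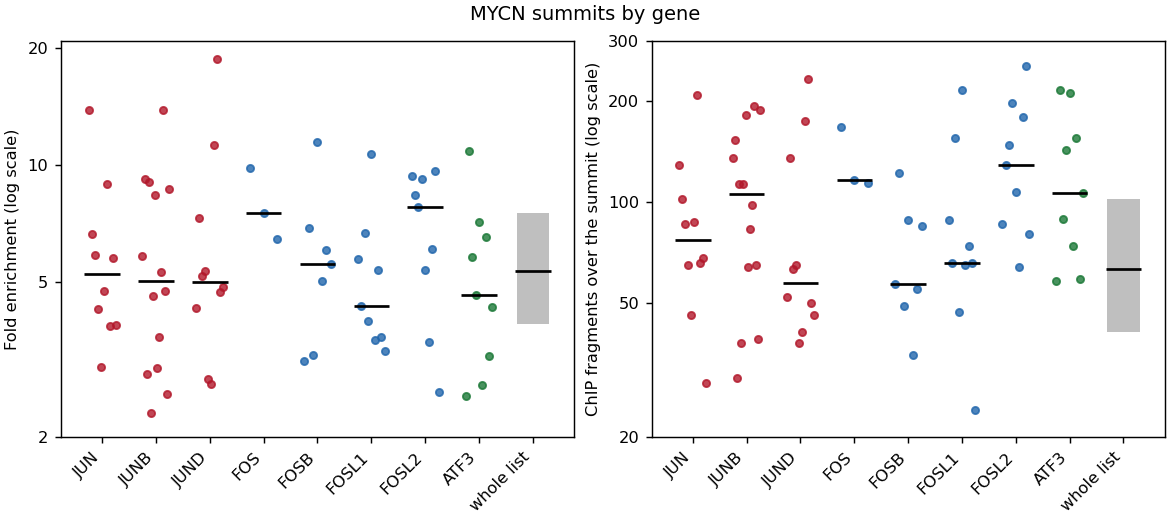
Fold enrichment (left, log scale) and ChIP fragments (right, log scale) of each summit by gene, with the gene's median as a line; the grey bar spans the quartiles of the whole list, with its median as a line. Fold enrichment spreads around the list's median of 5.35 at each gene except FOS, whose 3 summits lie above it, and ChIP fragments lie above the list's median of 63 at 52 of 71 summits.

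Among the 8 genes the highest fold enrichment was 18.7 at JUND, 13.9 at JUNB and JUN, 11.5 at FOSB, 10.9 at ATF3, 10.7 at FOSL1, 9.83 at FOS and 9.64 at FOSL2. Ranked by most ChIP fragments the order was FOSL2 with 254, JUND with 232, ATF3 and FOSL1 with 215 each, JUN with 208, JUNB with 193, FOS with 167 and FOSB with 122. FOSL2 was thus last by fold and first by fragments. In 5 of the 8 genes the summit with most fragments lay within 2 kb of the start, and in 3 of 8 the summit with the highest fold did. The closest summit inside the edge of a window was 0.319 kb from it, at FOSB, with a fold of 5.57. The closest summit outside an edge was 0.536 kb from it, at JUND, with 4.57.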

How the data were processed

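MYCN ChIP-seq peaks of Kelly cells came as deposited lists, 1 per state. MACS2 2.1.1, deepTools 2.2.4, SAMtools 1.3.1, STAR 2.5.1b, Picard and hg19 are named, without settings, in the submitters' processing notes. Per the labels each list stands for 2 ChIP samples; their pooling is not stated in the sources. The deposited fold enrichment is a ratio of ChIP pileup to local background at the summit, listed with its −log10 p and −log10 q-value. The deposited score is 10 times the −log10 q, cut to a whole number. These authors' values served to describe and rank summits.

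ChIP fragments and background were solved from fold and p-value as MACS2 relates them, after tests on simulated data. The simulations used that same relation, so they tested the solving and not the relation. Their backgrounds stopped below the highest of the members, 19. With a scale of 0.641, whole fragments gave −log10 p within 0.0005 at 64657 of 64657 summits (for 24, more than 1 number did and the closest was taken). Total read depth is unknown.

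Members and lists were chosen with earlier results of these data known. For each gene, the summit of highest fold, that with most fragments and those within 2 kb of the start are given. Starts come from the windows and the known strand. RefSeq (GRCh38.p14) gave promoter sequences and the names of neighbours. Intervals on shares are Clopper-Pearson (95%). With 1 list, no p-value was computed. Python 3.11.15, numpy 2.4.6, pandas 2.3.3, scipy 1.17.1 and matplotlib 3.10.9 were used. Positions count from 1.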

Additional observations from a re-analysis of the deposited data

How the results depend on the processing

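No paired analysis was possible because the peaks of both ChIP samples stand in a single list, which leaves no replicate to remove. The number of summits at the 8 loci, 71, was 40 when a fold of 5 or more was required and 44 when each interval counted once. Within 1.5 times of it were the counts at a −log10 q of at least 5 (63) or 10 (52) and with windows cut by 5 kb (57) or widened by 10 kb (97). The density ratio of 12.5 ran from 10.4 to 14.3 under its 7 alternatives. The median fold enrichment of 5.36 was 6.28 for the strongest summit of each interval, where the list's was 5.80, and 6.27 with a −log10 q of at least 10; both alternatives keep higher values by construction. Leaving out 1 gene at a time gave 5.25 to 5.57, on both sides of the list's median of 5.35 over all summits. The share of summits with a fold of at least 10 was 8.20% to 11.3% without 1 gene and 13.6% per interval, against 15.1% in the list. At the highest background of the members, 19, even the list's highest fragment number, 280, gives a fold of only 9.03.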
